A study of Mus musculus with 6 samples.

Results

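Aminoacyl-tRNA synthetases attach each amino acid to its transfer RNA and so supply the ribosome with charged tRNA. The mRNAs of 37 genes of this machinery were followed here, namely 19 genes of cytosolic enzymes, 16 genes of mitochondrial enzymes and 2 scaffold genes, Aimp1 and Aimp2. They were chosen by gene symbol alone and found through the Ensembl gene ID in the name of each row. All 37 were listed among the 18437 mRNAs of the deposited tables. Each value is a ribosome density in RPKM, that is the reads of ribosome-protected fragments on a coding sequence (CDS), divided by its length in kilobases and by the total of reads on all CDSs of the library.

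The samples were Ribo-seq libraries labelled as brain, small intestine, colon, kidney, heart and lung, 1 library for each, from wild-type (WT) mice of the strain C57BL/6J at 4 weeks of age. No library had a treatment. The number of animals behind a library is not given in the sources used here. A single library stood for each tissue, so no spread between replicates could be measured and no test between tissues was made, and each interval below is a 95% interval that covers counting error only.

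Most cytosolic synthetases are single polypeptides that charge 1 tRNA type. Several of them, with the bifunctional glutamyl-prolyl enzyme Eprs1, are held by Aimp1 and Aimp2 in the multisynthetase complex. Mitochondria translate their own mRNAs with a separate set of enzymes, encoded in the nucleus and carrying the suffix 2 in their names, while Gars1 and Kars1 supply both compartments from 1 gene. Beyond charging, Wars1 is known as an interferon-inducible gene, and several cytosolic synthetase genes are known targets of the stress transcription factor ATF4.

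The libraries held between 4504853 and 10635031 reads on CDSs. Of the 6 labels, 4 went against tissue markers. All 5 brain markers were highest in the library labelled small intestine, all 5 small intestine markers in that labelled brain, all 5 kidney markers in that labelled colon, and 4 of 5 colon markers in that labelled kidney. The heart and lung markers were highest under their own labels. Each library is therefore called by its label, and which tissue a difference belongs to was not settled. The libraries labelled brain and lung also lacked reads on many mRNAs that the others read well. Of the mRNAs expected to have at least 20 reads from the other libraries, 9.02% had 3 or fewer in the library labelled brain and 6.50% in that labelled lung, against 0.275% to 2.91% in the other 4. The mRNA of Kri1, a ribosome biogenesis factor, took from 0.400% (labelled lung) to 22.1% (labelled kidney) of all reads, which lowers the RPKM of every other mRNA in proportion. Unless a library is named, values are given in the order of the labels brain, colon and heart, followed by kidney, lung and small intestine.

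Cytosolic synthetases were read at similar densities in all libraries, and mitochondrial synthetases were not. Pooled over the 19 cytosolic mRNAs, the density was 39.9, 33.0, 28.2, 23.9, 42.0 and 30.7 RPKM. Pooled over the 16 mitochondrial mRNAs, it was 6.73, 14.3, 12.6, 6.08, 7.24 and 4.59 RPKM. The highest pooled density was 1.76 times the lowest for the cytosolic enzymes and 3.13 times the lowest for the mitochondrial ones. In bulk tissue, fewer cells of a type and less RNA per cell cannot be told apart, and a ribosome density does not separate the level of an mRNA from the ribosomes on each copy. The mitochondrial enzymes were highest in the libraries labelled colon and heart, and their counting intervals (13.7 to 15.0 and 12.2 to 13.1 RPKM) did not overlap those of the other 4 libraries. Between the 2 libraries whose labels the markers bear out, the mitochondrial enzymes were at 12.6 RPKM under heart and 7.24 RPKM under lung, a ratio of 1.74, and the cytosolic enzymes were at 28.2 and 42.0 RPKM, a ratio of 1.49 in the opposite direction. By the median of the members in place of the pooled density, the mitochondrial enzymes had 8.37 RPKM under heart, 8.27 under lung and 5.83 under colon, so that colon was then not among the 2 highest. Without the libraries labelled brain and lung the ratio of highest to lowest was 1.38 for the cytosolic and 3.13 for the mitochondrial enzymes.

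The order of the libraries for the cytosolic enzymes depended on the scaling. With median-of-ratios size factors in place of all reads, the pooled densities became 38.3, 30.3, 32.4, 27.5, 31.0 and 35.9 RPKM, which moved the library labelled lung from the highest place to one below those labelled brain, small intestine and heart. It also turned the direction between the libraries labelled heart and lung. The library labelled kidney stayed lowest. For the pooled mitochondrial enzymes the libraries labelled heart and colon stayed the 2 highest.

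**Figure D1:**
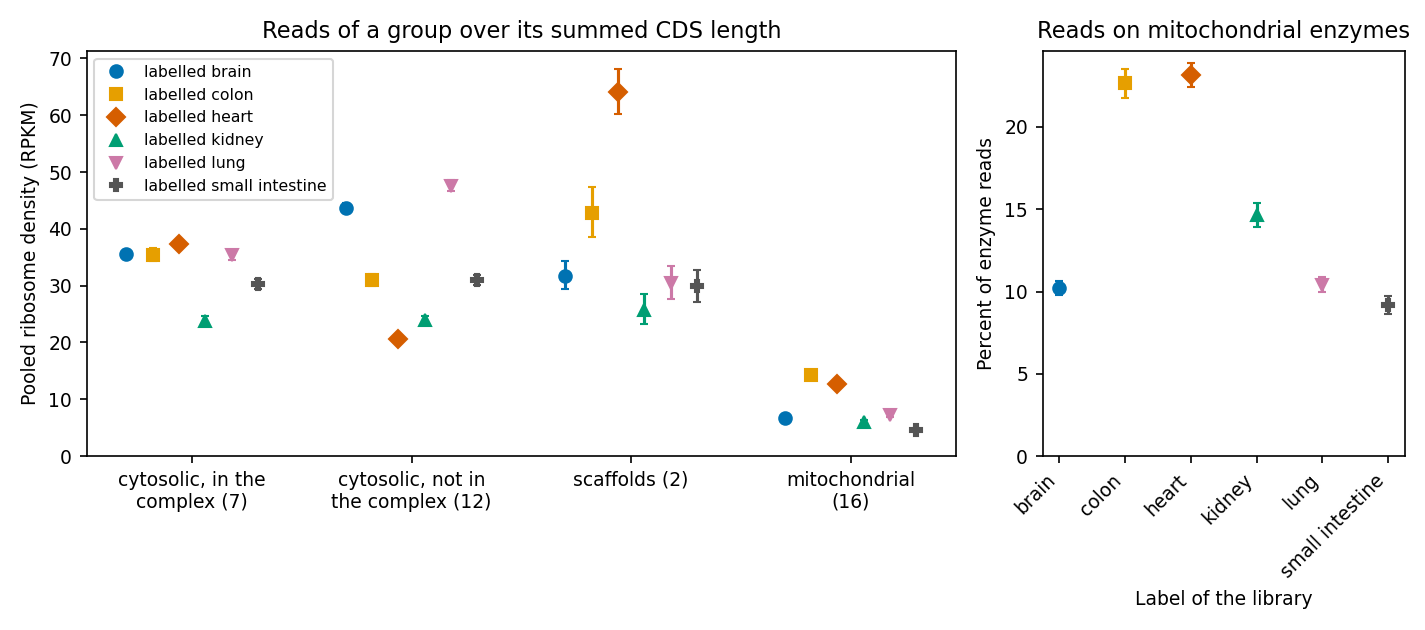
Left, pooled ribosome density (RPKM, linear axis from 0) of 4 groups of mRNAs in each of the 6 libraries, with the number of mRNAs in parentheses. Right, the percent of all synthetase reads that lay on the 16 mitochondrial enzymes, by library. Bars are 95% counting intervals of 1 library each. The mitochondrial enzymes lie lowest in every library, and their share is highest under the labels heart (23.2%) and colon (22.7%).

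As a share of reads, which no scaling between libraries can change, mitochondrial members took 10.2%, 22.7%, 23.2%, 14.6%, 10.4% and 9.17% of all synthetase reads. The 95% Wilson intervals of the libraries labelled colon (21.8% to 23.5%) and heart (22.5% to 23.9%) overlapped, and both lay above that labelled kidney (14.0% to 15.4%). The library labelled kidney in turn lay above the remaining 3. Per unit of CDS length, ribosomes were 5.94, 2.30, 2.24, 3.93, 5.80 and 6.68 times as dense on cytosolic as on mitochondrial synthetase mRNAs.

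Single cytosolic enzymes varied less between libraries than single mitochondrial ones. The highest library exceeded the lowest by a median of 2.79 times over the 19 cytosolic genes, from 2.01 times for Kars1 to 8.63 times for Farsa. Over all 13476 mRNAs with a mean of at least 10 reads the median of this ratio was 25.1, and over the 4500 of them with a median density of 10 to 100 RPKM it was 7.96. Every cytosolic enzyme was read in every library, with at least 31 reads. Over the 16 mitochondrial enzymes the median ratio was 18.7. Here a library without reads was taken as the lowest and counted at the RPKM of 3 reads. For Ears2, Mars2, Pars2 and Yars2 another library, with 1 or 2 reads, lay below that value. Over all mRNAs such a lower value was used, so 18.7 and 25.1 are not on the same footing. The cytosolic ratios, all from at least 31 reads, are the same by both rules. The narrowest mitochondrial ratio was that of Iars2 at 2.61 times. At the wide end, Vars2 was at least 102 times higher in the library labelled lung, with 9.03 RPKM, than in that labelled brain, with 0 reads. Yars2 was at that end too, with 8.89 RPKM under heart and 0.0664 RPKM under brain, the latter from 1 read.

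Much of the mitochondrial spread came with missing reads. Of the 96 values (16 genes in 6 libraries), 16 were at 0 reads and 21 at 3 or fewer, and 9 of the 21 fell in the library labelled brain and 4 in that labelled lung. In the library labelled brain, Nars2 had 0 reads where the other libraries would give 104, and Vars2 had 0 where they would give 124. In that labelled lung, Yars2 had 0 reads against 48.9. These are the same 2 libraries in which mRNAs in general lacked reads, and the part of this in the low mitochondrial densities there was not tested. No cytosolic or scaffold value was as low.

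**Figure D2:**
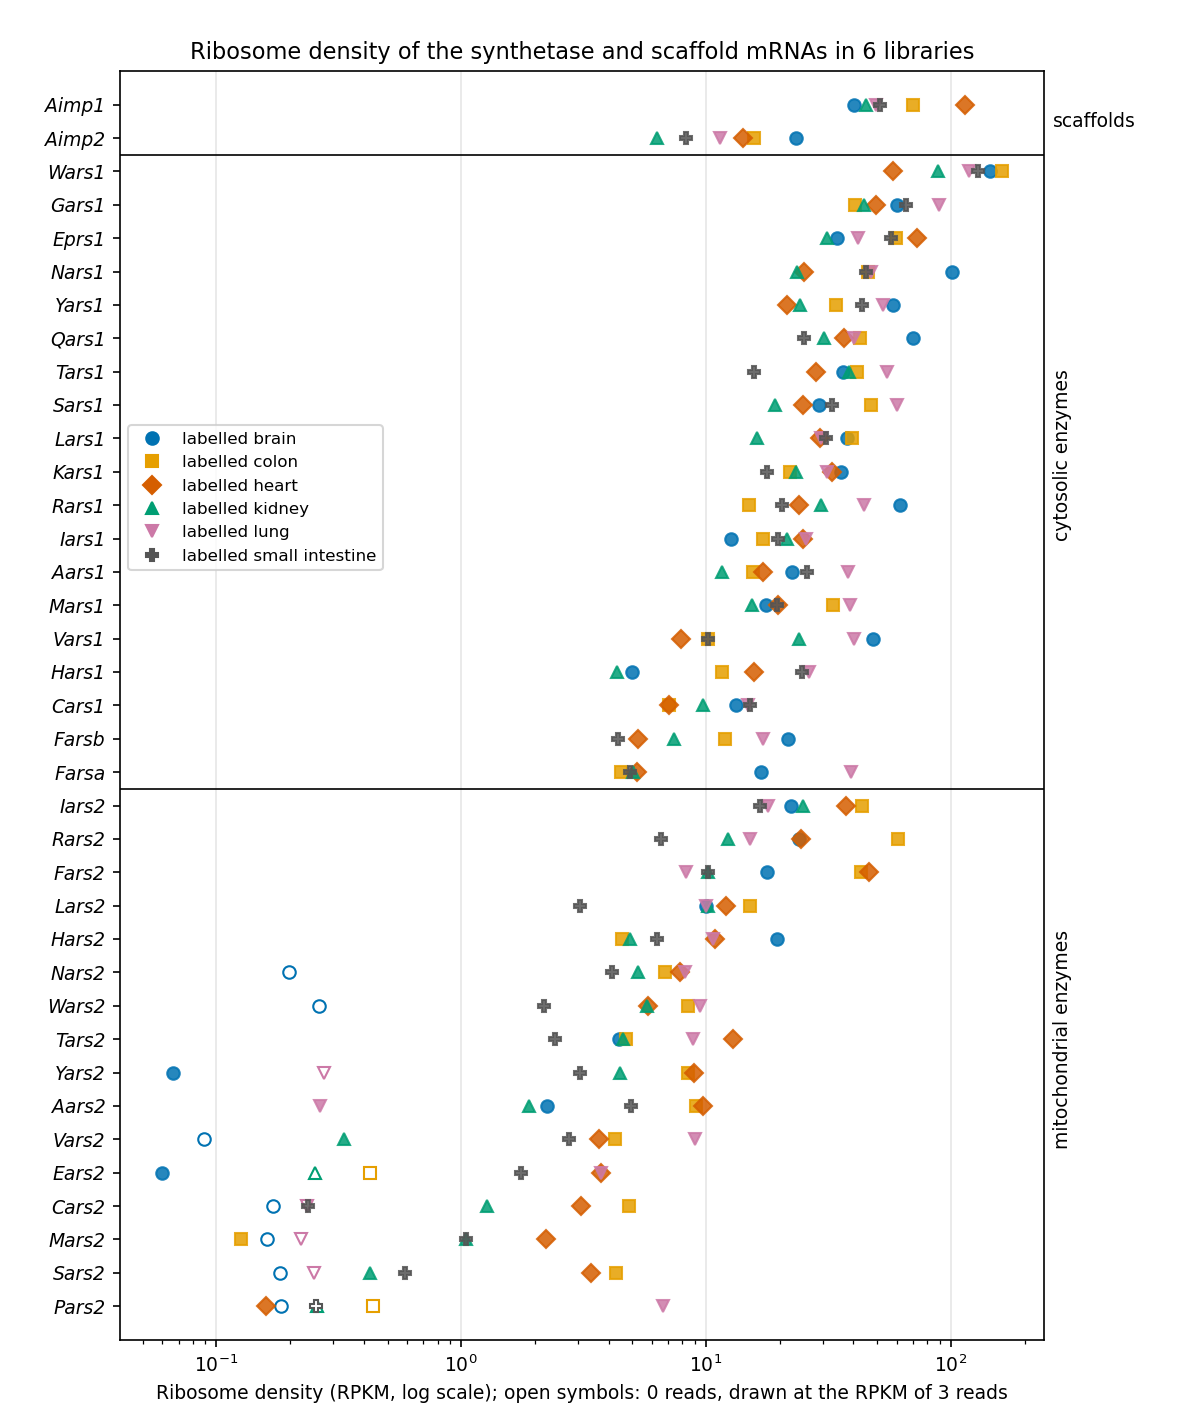
Ribosome density (RPKM, log axis) of each of the 37 mRNAs in the 6 libraries, 1 symbol per library, in 3 blocks ordered by median. Open symbols mark 0 reads and stand at the RPKM that 3 reads would give. Symbols of the cytosolic block lie close together and to the right, with Wars1 (58.1 to 162 RPKM) at the top, and symbols of the mitochondrial block spread to below 1 RPKM for genes such as Pars2 and Vars2.

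Wars1, the tryptophan enzyme (chromosome 12, 108825955 to 108860188, minus strand, GRCm39), was the most densely read synthetase. Its density was 145, 162, 58.1, 88.8, 119 and 129 RPKM. It ranked first of the cytosolic enzymes in 5 of 6 libraries, and under heart it was second to Eprs1, which had 73.0 RPKM. The library labelled heart was also its lowest, with a counting interval of 53.8 to 62.6 RPKM that lay below those of all others. Wars1 was highest in the library labelled colon (152 to 172 RPKM), and its interval did not overlap that of the next, labelled brain (139 to 151 RPKM). With size factors Wars1 was at 139, 148, 66.6, 102, 87.4 and 151 RPKM, which put the library labelled small intestine first and left that labelled heart lowest.

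Because Wars1 is interferon-inducible, its density was set beside 11 other interferon-inducible genes, of which 10 had a mean of at least 10 reads. Their median density was 14.9, 3.75, 7.12, 8.73, 35.8 and 1.79 RPKM. Against the median of the other libraries, 7, 3, 3, 1, 8 and 0 of the 10 were at least 2-fold higher and 1, 3, 5, 4, 1 and 10 lower. Over all mRNAs between 24.0% and 34.8% were higher and between 23.4% and 33.3% lower. In the library labelled small intestine, where 27.1% of all mRNAs were lower, Irf1 had 2.12 RPKM against 208 RPKM under the label brain. Irf1 is a transcription factor of the interferon response. Wars1 had 129 RPKM in that same library labelled small intestine, and whether its density follows these genes was not tested. White blood cell markers summed to 391, 104, 138, 195, 1696 and 19.4 RPKM, all 5 highest under the label lung, and their part in these values was not tested.

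Eprs1, which charges both glutamate and proline tRNA and is the longest of the cytosolic members with 1512 codons, had densities of 34.3, 60.0, 73.0, 31.2, 41.7 and 57.2 RPKM. It was highest in the library labelled heart and lowest in that labelled kidney. Gars1, the glycine enzyme of both compartments, had 60.0, 40.6, 49.5, 44.2, 89.1 and 65.8 RPKM. Kars1, the lysine enzyme of both compartments, had 35.6, 21.9, 32.8, 23.3, 31.3 and 17.8 RPKM. Gars1 was thus read more densely than Kars1 in all 6 libraries. Mitochondrial and cytosolic forms of these enzymes come from the same gene, and a value per mRNA cannot tell them apart. Counting both as mitochondrial raised the mitochondrial share of reads to between 20.0% and 33.3%.

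The members of the multisynthetase complex and the other cytosolic enzymes ordered the libraries differently. The 7 complex enzymes of the list (Eprs1, Iars1, Kars1, Lars1, Mars1, Qars1 and Rars1) had pooled densities of 35.5, 35.4, 37.3, 23.8, 35.4 and 30.2 RPKM. The 12 enzymes outside the complex had 43.7, 31.0, 20.6, 24.0, 47.5 and 31.0 RPKM. Under heart, complex enzymes were the more densely read, with intervals of 36.4 to 38.3 against 19.9 to 21.2 RPKM, and under colon they were too, with 34.3 to 36.7 against 30.0 to 32.0 RPKM. In those labelled brain and lung the free enzymes were the denser group by pooled density. By the median of members that held under lung (43.6 against 38.6 RPKM) but not under brain (32.6 against 35.6 RPKM). Under heart and colon the complex enzymes were the denser group by the median too. In those labelled kidney and small intestine the intervals of the 2 groups overlapped. Between the libraries labelled heart and lung the pooled complex enzymes differed 1.06-fold (higher under heart) and the free enzymes 2.31-fold (higher under lung). With size factors the pooled values differed 1.64-fold and 1.49-fold in the same directions, so which group differed more depended on the scaling. Eprs1 held 2708 of the 6345 reads on complex enzymes under heart. By the median of members in RPKM the complex enzymes were instead higher under lung (38.6 against 29.15 RPKM under heart). The free enzymes were higher under lung by that measure too (43.6 against 19.2 RPKM).

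The scaffolds had pooled densities of 31.7, 42.7, 64.1, 25.7, 30.4 and 29.9 RPKM. Under heart they were the denser group beside the complex enzymes, with 60.2 to 68.2 against 36.4 to 38.3 RPKM, and the pooled value joins an abundant and a less abundant mRNA. Aimp1 (chromosome 3, 132366242 to 132390131, minus strand) had 40.1, 69.8, 114, 45.2, 49.5 and 51.5 RPKM. Aimp2 (chromosome 5, 143838531 to 143846665, minus strand) had 23.4, 15.7, 14.1, 6.32, 11.5 and 8.31 RPKM. Aimp1 exceeded Aimp2 in all 6 libraries, by 1.71 times (1.46 to 2.02) in that labelled brain and by 8.08 times (6.63 to 9.93) in that labelled heart. Aimp1 peaked under the label heart, while Aimp2 was highest in that labelled brain.

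Farsa and Farsb encode the subunits of the only cytosolic synthetase built from different chains, the phenylalanine enzyme, in which each subunit is present in equal number. Farsa (chromosome 8, 85583610 to 85595887, plus strand) had 16.8, 4.52, 5.21, 5.02, 38.96 and 4.89 RPKM, and was therefore near 5 RPKM in 4 libraries and higher in those labelled brain and lung. Farsb (chromosome 1, 78392766 to 78465534, minus strand) had 21.7, 11.9, 5.26, 7.39, 17.1 and 4.37 RPKM. The ratio of Farsa to Farsb was 0.778, 0.378, 0.992, 0.679, 2.28 and 1.12. Its counting interval included 1 in the libraries labelled heart and small intestine, lay below 1 in those labelled brain, colon and kidney, and above 1 in that labelled lung (1.95 to 2.69). The subunit with fewer reads had 31 in the library labelled colon, so the ratio there has a wide interval (0.244 to 0.573).

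**Figure D3:**
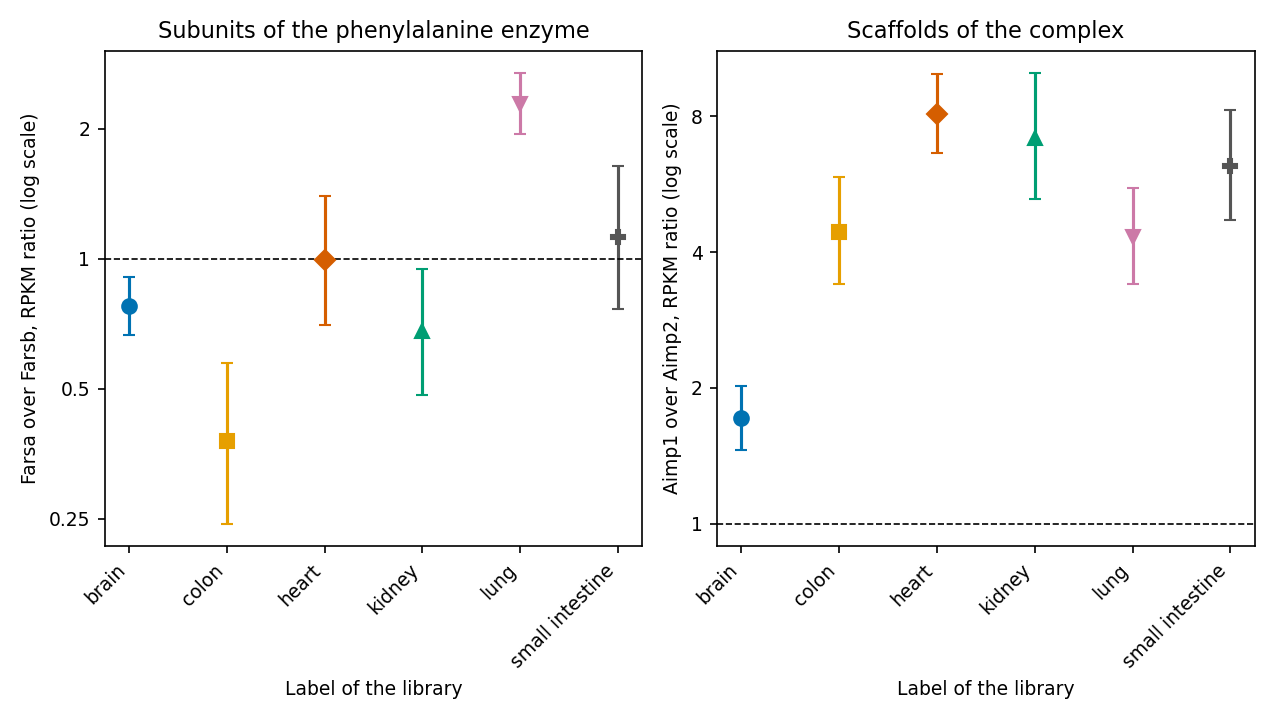
Ratio of RPKM (log axis) of Farsa to Farsb, left, and of Aimp1 to Aimp2, right, in each library, with 95% counting intervals of 1 library each. The dashed line marks equal density. The Farsa to Farsb ratio runs from 0.378 to 2.28 on both sides of the line, and the Aimp1 to Aimp2 ratio from 1.71 to 8.08 lies above it in every library.

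Of the other cytosolic enzymes, Vars1, the valine enzyme (chromosome 17, 35219871 to 35235305, plus strand), and Hars1, the histidine enzyme, had the widest ranges after Farsa. Vars1 had 48.0, 10.1, 7.87, 24.1, 40.1 and 10.2 RPKM, a ratio of 6.10 between the libraries labelled brain and heart. Hars1 had 4.99, 11.6, 15.8, 4.32, 26.4 and 24.6 RPKM, a ratio of 6.12 between those labelled lung and kidney. The libraries labelled brain and lung were both high for Vars1, and were far apart for Hars1. Nars1, the asparagine enzyme, reached 101 RPKM in the library labelled brain, where it was second to Wars1, and lay between 23.4 and 47.1 RPKM in the others. The remaining cytosolic enzymes, Aars1, Cars1, Iars1, Lars1, Mars1, Qars1, Rars1, Sars1, Tars1 and Yars1, lay between 7.03 RPKM (Cars1, labelled colon) and 70.1 RPKM (Qars1, labelled brain).

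Among the mitochondrial enzymes a few genes carried most of the reads. The 4 with the most reads held between 61.5% and 80.4% of them, and Iars2, the isoleucine enzyme (chromosome 1, 185016803 to 185061612, minus strand), held the most in every library, with 24.5% to 40.5%. Iars2 had 22.2, 43.5, 37.4, 24.8, 17.9 and 16.7 RPKM. Rars2, the arginine enzyme (chromosome 4, 34614638 to 34660904, plus strand), had 24.1, 60.6, 24.4, 12.2, 15.1 and 6.56 RPKM. Fars2, the single-chain phenylalanine enzyme (chromosome 13, 36301324 to 36910254, plus strand), had 17.8, 43.0, 46.5, 10.1, 8.32 and 10.2 RPKM. All 3 were high in the library labelled colon, and Fars2 and Iars2 were high in that labelled heart too.

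Vars2, Nars2 and Aars2 had wide ranges among the mitochondrial genes, as had Ears2, Pars2, Wars2 and Yars2. The ratios of the latter genes are lower bounds from 0 reads, so that they cannot be ranked below Aars2. Ears2 had 3.74 RPKM under heart and 0.0599 RPKM, from 1 read, under brain. Vars2, the valine enzyme, had 0, 4.26, 3.65, 0.332, 9.03 and 2.76 RPKM. Nars2, the asparagine enzyme, had 0, 6.83, 7.86, 5.25, 8.23 and 4.11 RPKM. Aars2, the alanine enzyme, had 2.24, 9.14, 9.73, 1.88, 0.264 and 4.94 RPKM, of which the value under lung rests on 6 reads. For Vars2 and Nars2 the low value is that of the library labelled brain, and without it Nars2 lay within 4.11 to 8.23 RPKM. Pars2, the proline enzyme, had 79 of its 81 reads in the library labelled lung, at 6.67 RPKM, 2 reads in that labelled heart and none in the others. It passed the minimum mean of 10 reads through that library alone. Cars2, Ears2, Mars2 and Sars2 stayed below 5 RPKM in all 6 libraries. Tars2 was highest under heart with 12.9 RPKM, Hars2 under brain with 19.4 RPKM, Lars2 under colon with 15.1 RPKM, Yars2 under heart with 8.89 RPKM and Wars2 under lung with 9.46 RPKM.

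Set against the cytosolic enzyme for the same amino acid, the mitochondrial enzyme was the less densely read for most amino acids. Fars2 aside, there were 15 such pairs, with both Ears2 and Pars2 set against Eprs1. The counting interval of the ratio lay below 1 for 13, 12, 13, 13, 15 and 15 pairs, and above 1 for 2, 2, 1, 1, 0 and 0 pairs. By the median over libraries the lowest ratio was that of Pars2 to Eprs1. It was at most 0.00827 in the 4 libraries without a Pars2 read, where Pars2 was counted at 3 reads, 0.00219 in that labelled heart from 2 reads, and 0.160 (0.126 to 0.200) in that labelled lung. Single ratios of other pairs were as low where the mitochondrial enzyme had 0 or 1 reads.

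Phenylalanine and isoleucine were the exceptions. The ratio of Iars2 to Iars1 was 1.76, 2.54, 1.51, 1.17, 0.700 and 0.851. Iars1, the cytosolic isoleucine enzyme, had 12.6, 17.1, 24.8, 21.3, 25.5 and 19.6 RPKM. The interval of the ratio lay above 1 in the libraries labelled brain, colon, heart and kidney and below 1 in the other two. The ratio of Fars2 to Farsb was 0.822, 3.60, 8.85, 1.37, 0.488 and 2.32, and that to Farsa was 1.06, 9.52, 8.92, 2.02, 0.214 and 2.08. Both ratios were highest in the libraries labelled colon and heart and lowest in that labelled lung. In single libraries, Rars2 exceeded Rars1 by 4.03 times (3.32 to 4.92) under colon, where Rars1 had its lowest density of 15.0 RPKM, and Hars2 exceeded Hars1 by 3.90 times (3.04 to 5.04) under brain. Hars1 and Hars2 are annotated head to head on opposite strands and overlap at their starts.

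**Figure D4:**
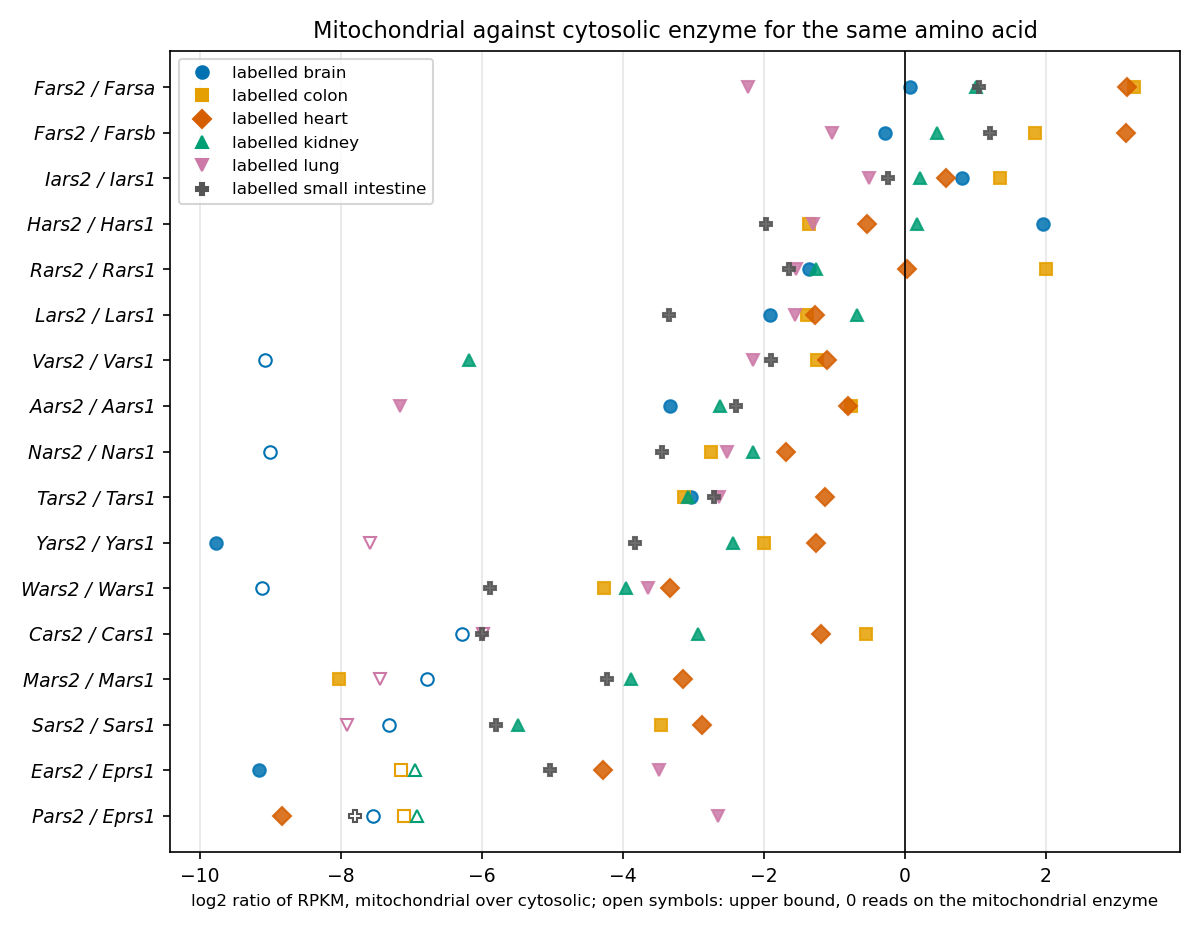
log2 ratio of RPKM of the mitochondrial to the cytosolic enzyme for the same amino acid in each library, ordered by median, with Fars2 set against each cytosolic subunit. Open symbols are upper bounds from 0 reads on the mitochondrial enzyme, counted at 3 reads. Most symbols lie left of the line at equal density, and those of Fars2 and Iars2 lie on both sides of it.

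To describe direction for all members on the same footing, each density was compared with the median of the other 5 libraries after adding 0.1 RPKM, and changes of at least 2-fold were counted beside the same count over all 13476 mRNAs with a mean of at least 10 reads. All 37 members passed that minimum. In the library labelled heart, 9 of 16 mitochondrial enzymes were 2-fold higher and 0 lower (25.5% and 26.0% of all mRNAs), among them Fars2, Tars2, Aars2 and Yars2. One of the 9 was Pars2, with 2 reads against a median of 0, and without it the count was 8 of 15. Mars2, with 32 of its 61 reads in this library, and Sars2, with 43 of its 85, passed the minimum only through these reads. Both remain in these counts and in the median given below, which are therefore a description only. Cars2, Ears2, Mars2 and Sars2, also among the 9, had 32 to 48 reads where the other libraries would give 0.769 to 5.4. In the same library, 0 of 19 cytosolic enzymes were higher and 4 were lower, namely Farsb, Vars1, Wars1 and Yars1. The median log2 difference there was 1.43 for the mitochondrial and -0.29 for the cytosolic enzymes, against -0.02 over all mRNAs. With size factors 1 cytosolic enzyme was higher and 2 were lower there (3907 and 2984 of 13476 mRNAs). Of the mitochondrial enzymes without Pars2, 9 of 15 were then higher and 0 lower. Of the scaffolds, Aimp1 was higher.

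In the library labelled colon, 6 of 16 mitochondrial enzymes were 2-fold higher and 3 lower, and of the cytosolic enzymes 0 were higher and 1, Vars1, was lower (26.0% and 27.0% of all mRNAs). In that labelled brain, 9 of 16 mitochondrial enzymes were lower and 1, Hars2, was higher, whereas 5 cytosolic enzymes (Farsa, Farsb, Nars1, Rars1 and Vars1) were higher and 1, Hars1, was lower (25.4% of all mRNAs were higher and 33.3% lower). Of the 9 lower ones, 8 had 3 or fewer reads there, and the exception was Aars2 with 70 reads.

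In the library labelled lung, 6 of 19 cytosolic enzymes were higher and 0 lower, a share of higher genes near that of all mRNAs (34.8% higher and 26.6% lower). The 6 were Aars1, Farsa, Farsb, Hars1, Sars1 and Vars1. Of the 16 mitochondrial enzymes 3 were higher and 6 lower, and 4 of the 6 lower ones, Cars2, Mars2, Sars2 and Yars2, had 0 reads there. Pars2 is among the 3 higher ones and passed the minimum through that library alone. Without Pars2, 8 of all members were higher and 6 lower. With size factors in place of all reads 4 were higher and 8 lower, of which 2 higher and 0 lower were cytosolic. Of all 13476 mRNAs, 3279 were higher and 4341 lower there with size factors. In the library labelled kidney, 3 of the 37 members were higher and 6 lower (24.0% and 23.4% of all mRNAs), and in that labelled small intestine 4 were higher and 7 lower (31.6% and 27.1%).

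Counted by the library with the highest density, 9 members were highest under brain, 7 under colon, 8 under heart, 0 under kidney, 12 under lung and 1 under small intestine. Over all mRNAs these shares were 16.6%, 15.1%, 12.7%, 7.25%, 26.8% and 21.6%. Cytosolic enzymes were most often highest under lung (8) and brain (7), and mitochondrial enzymes under heart (6), colon (5) and lung (4). These counts rest on RPKM and were not repeated with size factors. Size factors lowered the pooled cytosolic density under lung from 42.0 to 31.0 RPKM, so the count of 8 there depends on the scaling. The gene highest under small intestine was Cars1, with 15.1 RPKM.

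The mitochondrial enzymes were compared with 10 nuclear genes of mitochondrial content, such as Cs (citrate synthase), Sdha and Atp5f1b. Their median density was 174, 224, 811, 90.1, 115 and 110 RPKM. At least 2-fold higher were all 10 under heart and 7 under colon (25.5% and 26.0% of all mRNAs). In these 2 libraries the pooled mitochondrial synthetases were highest. By the median of members the synthetases were instead highest under heart (8.37 RPKM) and lung (8.27 RPKM). Under lung, 0 of the 10 content genes were higher and 3 lower (34.8% and 26.6% of all mRNAs). From the lowest to the highest library the median of the content genes ranged from 90.1 to 811 RPKM. The median of the mitochondrial synthetases ranged from 0.0632 RPKM (labelled brain, with 9 of 16 at 3 or fewer reads) to 8.37 RPKM (labelled heart). Their pooled density, an unlike measure, ranged from 4.59 to 14.3 RPKM.

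Genes that act beside the synthetases were counted in the same way. Of 11 partner genes, the number 2-fold higher was 3, 5, 4, 0, 2 and 3, and the number lower was 5, 2, 1, 4, 3 and 2. Over all mRNAs between 24.0% and 34.8% were higher and between 23.4% and 33.3% lower. With 11 genes, these counts are a description only. Trnt1, which adds the CCA end to tRNAs, was highest in the library labelled brain with 124 RPKM, against 16.1 to 44.9 RPKM elsewhere. Dtd1, a deacylase that clears mischarged tRNA, had 8.998, 270, 167, 21.9, 35.5 and 419 RPKM. Gatb, Gatc and Qrsl1 form the amidotransferase that makes mitochondrial glutaminyl-tRNA from the product of Ears2. Gatb had 7.32, 31.8, 7.68, 1.97, 10.5 and 2.82 RPKM, and Qrsl1 had 0.299, 2.26, 7.06, 3.27, 0.164 and 3.65 RPKM.

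Several cytosolic synthetase promoters carried the recognition motif of ATF4. The motif TGATGNAAN, the C/EBP-ATF response element, was searched on both strands of the 250 bases before and 50 bases after the start site in RefSeq promoters of the mouse build GRCm38.p6, and no other motif was searched. Of the cytosolic genes, 12 had an entry, and 5 of these (41.7%) held the motif. It was found in 0 of 14 mitochondrial and 0 of 2 scaffold promoters with an entry, and in 4.50% of all 27025 promoters. Cars1, Hars1, Lars1, Nars1, Rars1, Vars1, Wars1, Hars2 and Pars2 were not searched. The match nearest to the start site of each of the 5 genes is printed to show which cytosolic genes share the motif. Each line is a 30-base window on the strand of the gene, 5′ to 3′, with the match in capitals.
Aars1, chr8:111033839-111033868, plus strand, 9 bases after the start site: tagcgggtcacTTTTCATCAgagcgctctg
Gars1, chr6:55037959-55037988, plus strand, 31 bases before: ctggctgcgctATTTCATCAtgcaccgggc
Iars1, chr13:49682125-49682154, plus strand, 7 bases after: gcactgtcagtATTGCATCAcctccagacg
Tars1, chr15:11399656-11399685, minus strand, 16 bases before: ccaggagtcccGTTGCATCAgctggttagc
Yars1, chr4:129189895-129189924, plus strand, 4 bases after: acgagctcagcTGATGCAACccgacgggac
A match of letters describes the sequence and does not show that a factor binds there. The Yars1 match reads on the strand of the gene and the other printed matches on the opposite strand.

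The 5 genes with a match had pooled densities of 32.8, 27.1, 27.4, 26.3, 47.8 and 31.4 RPKM, and the 7 cytosolic genes searched without a match had 33.3, 37.0, 35.9, 21.4, 38.7 and 28.9 RPKM. The genes with a match were the denser group in the libraries labelled kidney, lung and small intestine and the less dense one in those labelled colon and heart. For comparison, 14 other ATF4 targets with a mean of at least 10 reads were followed. Of these, 4, 5, 2, 3, 6 and 6 were at least 2-fold higher and 3, 6, 8, 7, 0 and 3 lower. Over all mRNAs between 24.0% and 34.8% were higher and between 23.4% and 33.3% lower. The 0 lower under lung came with a median log2 difference of 0.30 over all mRNAs of that library. With size factors, which moved that median to -0.09, 2 targets were higher and 2 lower there (3279 and 4341 of 13476 mRNAs). Asns, which makes asparagine, had 6.37, 2.24, 0.871, 20.6, 14.2 and 37.0 RPKM.

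The density of an enzyme was then set against how often its amino acid was read. The use of an amino acid was the percent of its codons in all CDSs, each CDS weighted by its RPKM, with the mitochondrially encoded mRNAs left out. Tryptophan was the least used of the 18 amino acids or pairs of them in all 6 libraries, with 1.22%, 1.26%, 1.02%, 1.17%, 1.06% and 1.20% of the codons read. Wars1 nevertheless had the highest density per percent of use, with 119, 128, 57.1, 75.9, 112 and 107.3 RPKM per percent, where the median enzyme had 6.58, 4.97, 5.31, 5.08, 8.18 and 4.60. At the other end were Hars1 under brain, Vars1 under colon and heart, the mean of Farsa and Farsb under kidney and small intestine, and Eprs1 under lung, with 1.26 to 2.98 RPKM per percent. Across the 18 enzymes Spearman's rho between use and density was 0.10, 0.23, 0.35, 0.22, 0.19 and 0.17. This is a description across genes of 1 library each, in which genes are not independent replicates and the RPKM of the enzymes enters the weights.

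**Figure D5:**
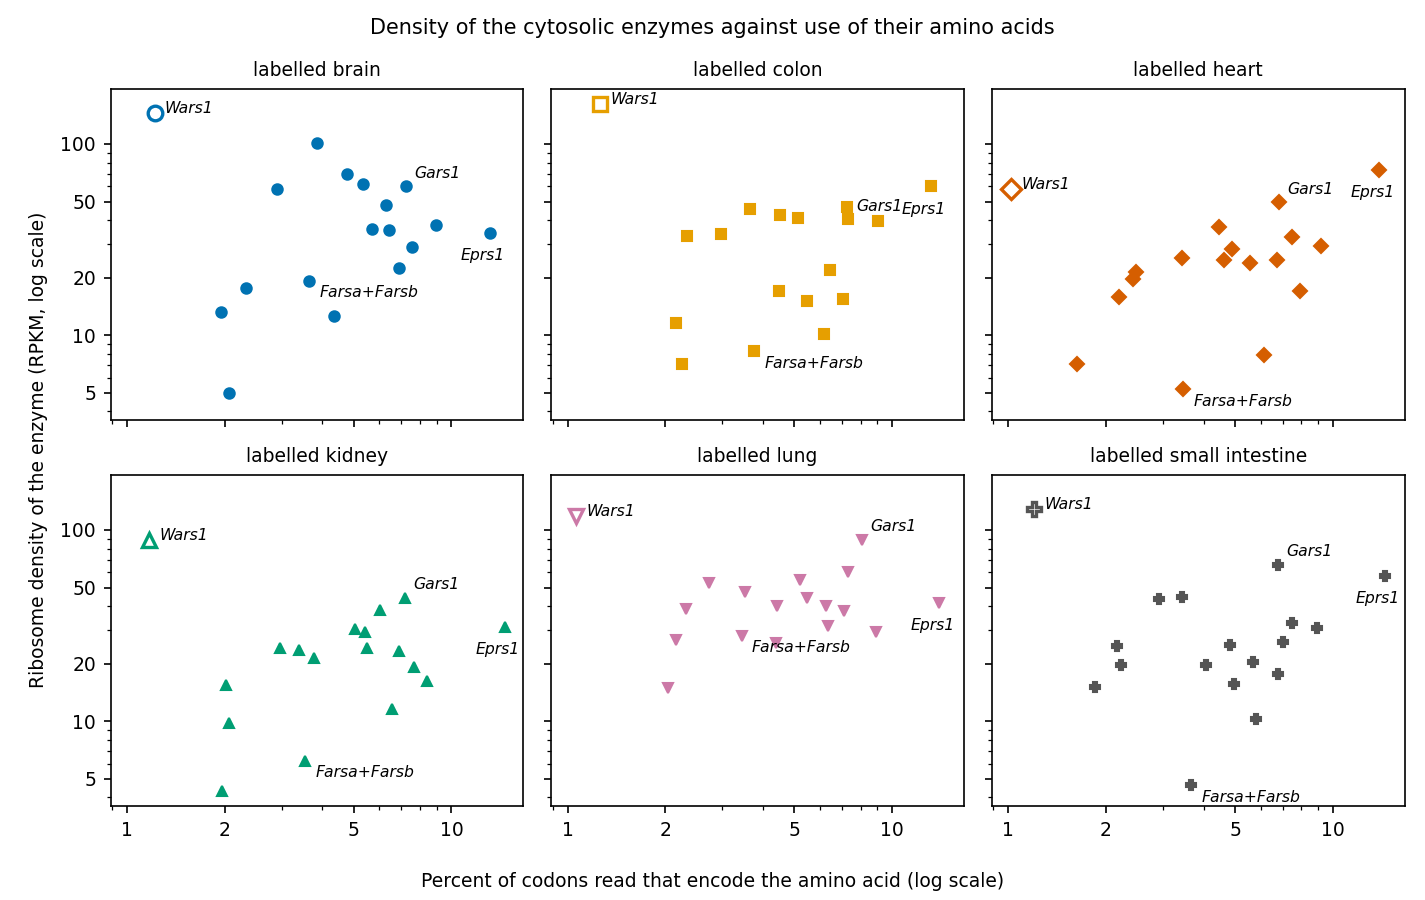
Ribosome density of each cytosolic enzyme (RPKM, log axis) against the percent of codons read that encode its amino acid (log axis), 1 panel per library. Eprs1 stands at the sum of glutamate and proline, and the 2 phenylalanine subunits at their mean. Wars1, the open symbol, lies at the upper left of every panel, with the lowest use (1.02% to 1.26%) and a density of 58.1 to 162 RPKM.

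Relative levels within each group were partly shared between libraries. Over the 19 cytosolic enzymes, Spearman's rho between the densities of 2 libraries ranged from 0.51 to 0.85 over the 15 pairs of libraries (median 0.69). Over the 16 mitochondrial enzymes it ranged from 0.46 to 0.89 (median 0.76). These values describe genes within the same 6 libraries and have no test.

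In composition, the coding sequences of the enzymes lay near the median of all CDSs. The percent of synonymous codons that end in G or C (GC3) had a median of 58.7% over the cytosolic, 61.3% over the mitochondrial and 54.7% over the scaffold CDSs, against 58.9% over 18154 CDSs. More than 50% of such codons ended in G or C in 17 of 19 cytosolic and 15 of 16 mitochondrial members (73.6% of all CDSs), the cytosolic range being 45.8% to 69.2%. No window of 29 nt in any of the 37 CDSs occurred in the CDS of another listed mRNA. Windows with mismatches and sequence outside the listed CDSs were not compared.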

How the data were processed

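Ribo-seq of 6 mouse tissues was analysed, with 1 library each, and macrophage samples were left out. RPKM values were deposited by the authors, 1 mRNA per gene. Their methods, written for the macrophage libraries and taken to hold here, describe trimming with Cutadapt, removal of reads under 15 nt, STAR alignment to 1 mRNA per gene, that of the longest CDS, of Ensembl release 107 (GRCm39), exclusion of multi-mapped reads and of reads with more than 2 mismatches, P-site assignment by a random forest and counting on the CDS. Digestion with RNase I and selection of a gel band precede sequencing, and PCR reads without molecular identifiers were counted, so intervals cover counting error only.

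Multiplying each RPKM by its CDS length recovered whole reads for 100% of values (tolerance 0.01 reads), from which counts, Poisson, Clopper-Pearson and Wilson intervals (95%) and a floor of 3 reads were computed. Gene coordinates and CDSs come from GRCm39 with GENCODE release M39, matched for 18154 of 18437 mRNAs (98.5%). Differences are log2(RPKM + 0.1) against the median of the other 5 libraries. They were computed for mRNAs with a mean of at least 10 reads. With 1 library per tissue no test was run and no p-value computed. Members, lists, markers and the rule for the genes given with all their values (the scaffolds, the phenylalanine subunits, Wars1, Kars1, Gars1 and Eprs1, the pairs with the highest and lowest ratios, and the 3 highest ratios of highest to lowest library in each compartment, bounds included) were chosen with earlier results of these data known. Genes named beyond this rule, such as Rars2, Nars1, Pars2, Irf1, Trnt1, Dtd1, Gatb, Qrsl1 and Asns, were chosen after their values were seen. For the ratio of highest to lowest library, a library without reads was taken as the lowest of a member. The code was tested on simulated data. Computations used Biopython 1.88, matplotlib 3.10.9, pandas 2.3.3, scipy 1.17.1 and numpy 2.4.6 under Python 3.11.15.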

Additional observations from a re-analysis of the deposited data

How the results depend on the processing

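No paired analysis was possible because each tissue has 1 library. Values follow the label order of the report unless named. Without Kri1 in the total, pooled cytosolic densities left their counting intervals at 40.8 (brain), 35.4 (colon), 30.7 (kidney) and 35.7 RPKM (small intestine), mitochondrial ones at 15.4 (colon), 7.81 (kidney) and 5.34 RPKM (small intestine), and scaffold ones at 33.0 (kidney) and 34.8 RPKM (small intestine). With size factors the cytosolic values were 38.3, 30.3, 32.4, 27.5, 31.0 and 35.9 RPKM, the mitochondrial ones outside their intervals 13.1 (colon), 14.5 (heart), 6.99 (kidney), 5.34 (lung) and 5.38 RPKM (small intestine), and the scaffold ones 73.4 (heart), 29.5 (kidney), 22.4 (lung) and 35.0 RPKM (small intestine). The median of members in place of the pooled density gave 35.6 (brain), 24.8 (heart), 23.3 (kidney), 40.1 (lung) and 24.6 RPKM (small intestine) for cytosolic and 0.0632, 5.83, 8.37, 4.52, 8.27 and 2.90 RPKM for mitochondrial enzymes, so that colon, highest by pooled density, came after heart and lung there.

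The mitochondrial share of reads became 20.0%, 29.3%, 33.3%, 25.7%, 22.3% and 20.7% with Gars1 and Kars1 counted as mitochondrial, 10.8%, 24.8%, 27.6%, 15.7%, 11.3% and 9.79% from sums of RPKM, and 7.95%, 20.0%, 22.3%, 10.5%, 8.91% and 7.35% without the member with the most reads in each group. With members of at least 10 reads in every library it was 19.1% (colon), 18.7% (heart), 12.5% (kidney), 6.62% (small intestine) and 7.48% (lung). The libraries labelled heart and colon held the 2 highest shares under each of these settings. The number of members at least 2-fold higher or lower stayed within 1.5 times in 10 of 12 counts with a pseudocount of 1 RPKM. The exceptions were the numbers higher, 1 (kidney) and 2 (small intestine). With size factors it did so in 10 of 12 counts too, the exceptions being 2 lower (heart) and 5 higher (lung). Leaving out the filter on low values could not change a count, because all 37 members had passed it. Another 6 alternatives were chosen after seeing the data, among them Pars2 left out, which kept all 12 counts within 1.5 times, and size factors for Wars1, for the complex and free enzymes and for the ATF4 targets. Without the libraries labelled brain and lung, the ratio of the highest to the lowest pooled density was 1.38 for cytosolic enzymes, and with the libraries labelled heart and lung alone it was 1.49 for cytosolic, 1.74 for mitochondrial and 2.11 for scaffold mRNAs. No ratio of a mitochondrial to a cytosolic enzyme changed its median direction with reads in place of RPKM, and Spearman's rho between use and density stayed above 0 in all 6 libraries without Kri1, without the 20 mRNAs with the most reads and with mitochondrially encoded mRNAs. With 1 library per tissue, differences between animals are not measured, and mitochondrial members under 10 reads have only wide intervals.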
